A study of Mus musculus with 4 samples.

Results

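The Hedgehog pathway was examined through 9 genes, the ligand Shh, the receptor Ptch1, the signal transducer Smo, the inhibitor Sufu, the transcription factors Gli1, Gli2 and Gli3, the ligand-binding antagonist Hhip and the co-receptor Boc. They were chosen by name for their roles in the pathway, with earlier results of these data known, and all 9 were found among the 24441 genes of the deposited table. RNA came from the skin of 4 C57BL/6 mice, labelled as female and 8 weeks old, which had all been injected under the skin with bleomycin (BLM) over 28 days. BLM is a cytotoxic antibiotic that causes local fibrosis and serves as a mouse model of scleroderma. The 2 WT mice carried the normal genes, and the 2 GSDMD KO mice (GSDMD-/- in the labels) had lost Gsdmd, the executor of pyroptosis, in every cell, after Cas9 and guide RNA had been injected into fertilized eggs. No library of skin without BLM was among them, so every value below is from treated skin. The comparison asked how the loss of Gsdmd changed gene expression in this skin.

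Hedgehog ligands bind the receptor Ptch1 on the receiving cell and thereby release Smoothened, the product of Smo, from inhibition at the primary cilium. Smoothened then frees the Gli transcription factors from Sufu, and active Gli proteins switch on their target genes, among which Gli1, Ptch1 and Hhip are the classic readouts. In skin, Shh is made by the epithelium of the growing hair follicle and signals to the follicle's own cells and to the dermal papilla beneath, where it is required for hair growth.

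All values are FPKM, that is fragments scaled to transcript length and library size, so that levels can be set side by side between genes. The values of low genes lie in steps of what 1 fragment is worth, and these steps put the libraries at about 12800000 to 17400000 fragments. Gsdmd itself ran at 14.0 and 18.2 FPKM in WT skin and, lower in both libraries as labelled, at 3.53 and 2.26 FPKM in KO skin. The KO libraries differed much from each other. KO replicate 1 had the highest value of all 6 inner root sheath genes and all 8 hair shaft keratins. It was also highest in all 5 melanocyte, all 7 fibroblast and all 4 suprabasal epidermal markers. KO replicate 2 had the lowest value of all 7 fibroblast, all 5 endothelial and all 5 macrophage markers. KO replicate 2 alone held Y-linked transcripts (4 of 4 genes checked, 1.78 FPKM summed) although the animals are described as female. Results are therefore given for each library, and with each KO library left out.

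Genes of the Hedgehog pathway tended to have higher values in the skin of GSDMD KO mice. Smo and Gli1 had the clearest differences, Gli2 a difference at a low level, Boc an uneven one, Ptch1 a small one and Sufu almost none, while Shh and Hhip were near the limit of detection outside KO replicate 1. For 7 of these 9 genes the lower KO value exceeded the higher WT value, and for 0 of 9 the groups were separated the other way. The 7 include Shh, which was separated only by about 1 fragment in KO replicate 2 against 1 in WT replicate 1, and 6 remain without it. Over all 19663 genes with a value above 0 in some library, 28.8% were separated in this way with KO higher and 19.2% with KO lower. These counts and shares are of FPKM without rescaling. Ptch1 was separated there by 2.26 FPKM in WT replicate 2 against 2.33 FPKM in KO replicate 2. The median-ratio factors of these libraries, 0.92 and 1.06, differ by a larger ratio, so the separation of Ptch1 depends on the scaling. For the test, values were transformed to log2(FPKM + 1), which understates the change of low genes, and fitted with limma over the 13027 genes that reached 1 FPKM in 2 or more libraries. This filter kept 6 of the 9 genes. Shh, Gli3 and Hhip were too low. Gli2 passed only through its KO libraries, so a difference of this gene was built into the filter. At an adjusted p under 0.05 (Benjamini-Hochberg) and an absolute log2 fold change above 1, limma called 0 of the 6 genes and 0% of all genes tested. At an unadjusted p under 0.05, 3 of the 6 (Smo, Gli1 and Gli2) were higher in KO mice and 0 were lower, against 10.9% higher and 6.22% lower over all tested genes. That background of 1420 higher and 810 lower genes became 1119 and 1121 when the libraries were rescaled by median-ratio factors, and the same 3 Hedgehog genes were at this limit. Without Gli2, which the filter favoured, 2 of 5 genes were at this limit. The number of Hedgehog genes at this limit was 1 without WT replicate 1 and 0 without WT replicate 2, where the higher genes of the whole table also dropped from 1420 to 904 and 281. The median log2 fold change of the 6 genes was 0.78, and that of the 5 without Gli2 was 0.77, the value of Smo, beside 0.11 for all tested genes. For any single gene, 2 mice against 2 allow an exact permutation p (two-sided) no lower than 0.333.

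**Figure D1:**
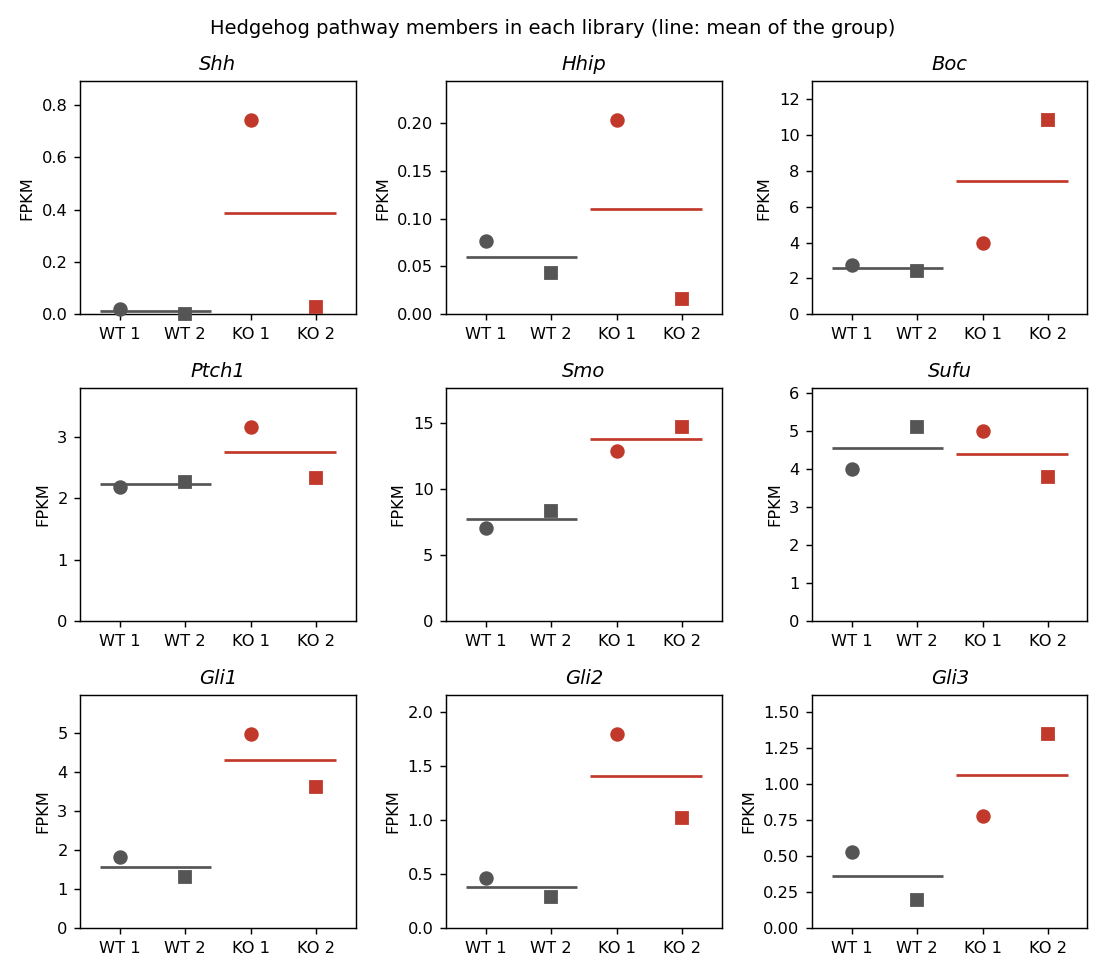
FPKM of each of the 9 Hedgehog genes (vertical axis, from 0, with its own scale for each gene) in the 4 libraries (horizontal axis), with circles for replicate 1, squares for replicate 2, WT in grey, KO in red and a line at the mean of each group. Smo, Gli1 and Gli2 are higher in both KO libraries, whereas Shh stands out in KO replicate 1 alone (0.743 FPKM) and Boc mainly in KO replicate 2 (10.8 FPKM).

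Shh encodes the Sonic hedgehog ligand and lies on chromosome 5 of mm9 from 28783380 to 28793641. It was at 0.0216 and 0 FPKM in WT replicates 1 and 2 and at 0.743 and 0.0297 FPKM in KO replicates 1 and 2. On its single annotated transcript of 2692 bases these values correspond to about 1.01, 0, 27.3 and 1.02 fragments, so the ligand was above the level of 3 fragments in KO replicate 1 only. A difference between the genotypes cannot be read from these values, because the other KO library was as low as the WT libraries. Exons of Shh overlap 9530036O11Rik and Gm17493 on the opposite strand, and no source used here says if strand was taken into account in counting. Hhip, whose product binds Hedgehog ligands outside the cell and is itself a target of the pathway, is on chromosome 8 from 82489750 to 82581907. Its WT libraries were at 0.0763 and 0.0436 FPKM and its KO libraries at 0.203 and 0.0162 FPKM, or about 6.08, 2.86, 12.7 and 0.951 fragments. The highest and the lowest values of Hhip were thus both in KO mice, and the groups overlapped.

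Ptch1, the main receptor and a target of Gli proteins, is on chromosome 13 from 63609636 to 63674768. WT skin gave 2.19 and 2.26 FPKM, KO skin 3.17 and 2.33 FPKM. KO replicate 2 lay only slightly above the WT libraries, and limma gave a log2 fold change of 0.21 ± 0.25 (SE, adjusted p = 0.663), with a 95% confidence interval from -0.44 to 0.85. Boc, a membrane protein that helps the ligand to bind its receptor, is on chromosome 16 from 44485158 to 44558983. Its level was 2.77 and 2.44 FPKM in WT mice, 3.99 FPKM in KO replicate 1 and 10.8 FPKM in KO replicate 2. Both KO values were above both WT values, but they differed from each other by more than KO replicate 1 differed from WT, and the log2 fold change of 1.09 carried an SE of 0.46 and a 95% confidence interval from -0.07 to 2.26 (adjusted p = 0.302 by limma). In limma fits it was 1.72 without KO replicate 1 (adjusted p = 0.0122) and 0.47 without KO replicate 2 (adjusted p = 0.661). In the fit without KO replicate 1, where the lone KO library is assumed to vary as the WT libraries do, Boc passed the threshold together with 6.59% of all tested genes that were called higher.

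Smo, which encodes the transducer Smoothened, is on chromosome 6 from 29685497 to 29711366 and was the highest of the 9 genes in each library. It stood at 7.04 and 8.34 FPKM in WT skin, and the KO libraries gave 12.9 and 14.7 FPKM. The groups were well separated, with means of 7.69 ± 0.918 and 13.8 ± 1.30 FPKM (SD, n = 2 each), a 1.79-fold difference. By limma its log2 fold change was 0.77 ± 0.24 (SE, adjusted p = 0.254), with a 95% confidence interval from 0.15 to 1.39. Sufu, the cytoplasmic inhibitor of the Gli proteins, is on chromosome 19 from 46471386 to 46563294. The WT values were 3.999 and 5.12 FPKM and the KO values 5.02 and 3.80 FPKM, so the groups overlapped. The log2 fold change of Sufu was -0.04 ± 0.27 (SE), with a 95% confidence interval from -0.73 to 0.64 that leaves room for a difference in either direction.

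Gli1, the transcription factor that most directly reports pathway activity, is on chromosome 10 from 126766938 to 126778635. It was at 1.81 and 1.31 FPKM in WT mice and at 4.98 and 3.61 FPKM in KO mice, and the lower KO value was above the higher WT value. The means were 1.56 ± 0.350 and 4.30 ± 0.971 FPKM (SD, n = 2 each), a 2.76-fold difference, and limma put the log2 fold change at 1.04 ± 0.27 (SE, adjusted p = 0.248, 95% confidence interval from 0.34 to 1.75). An exon of Gli1 overlaps Arhgap9 on the opposite strand by 55 bases. Gli2, the main activator among the Gli proteins, is on chromosome 1 from 120730638 to 120950196. WT mice showed 0.466 and 0.288 FPKM and KO mice 1.80 and 1.02 FPKM, about 27.3 to 53.8 fragments against 86.6 to 163. Both KO values exceeded both WT values, and the log2 fold change by limma was 0.79 ± 0.28 (SE, adjusted p = 0.273). Gli3, which acts mostly as a repressor, is on chromosome 13 from 15555556 to 15821858 and was measured at 0.526 and 0.196 FPKM in WT libraries, 0.779 FPKM in KO replicate 1 and 1.35 FPKM in KO replicate 2. The groups did not overlap, although WT replicate 1 was closer to KO replicate 1 than to WT replicate 2. Gli3 was not tested in the main fit, and in the fit without a filter on low values limma gave it a log2 difference of 0.60 ± 0.22 (SE, adjusted p = 0.393).

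**Figure D2:**
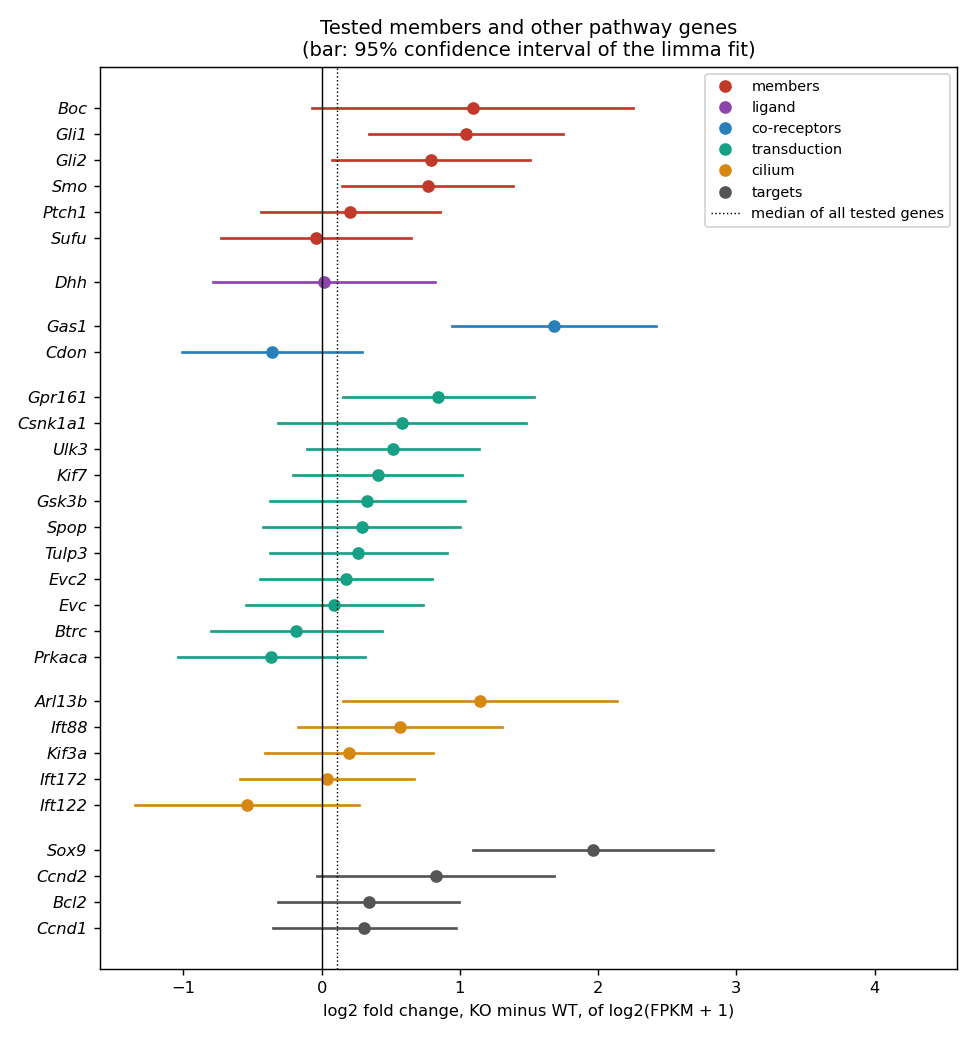
Log2 fold change between KO and WT libraries on the log2(FPKM + 1) scale (horizontal axis) for the 6 tested Hedgehog genes and 23 other tested genes of the pathway (vertical axis), grouped and coloured by role. Points are limma estimates, bars their 95% confidence intervals, and the dotted line the median of all tested genes (0.11). Gas1 (1.68) and Sox9 (1.96) lie farthest to the right, and the intervals of Boc, Ptch1 and Sufu span 0.

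The bases just before a RefSeq start of Ptch1, Smo and Gli2 are shown because Smo and Gli2 were among the genes at an unadjusted p under 0.05, while Ptch1, the receptor under Gli control, was not. They were taken from RefSeq promoter windows (GRCm38.p6, 250 bases before to 50 after a start), which were found for 6 of the 9 genes (Shh, Gli1 and Boc were not matched), and each stretch had 1 exact match on its chromosome in mm9. The stretches of 100 bases lie at chr13:63667044-63667143 on the minus strand for Ptch1, chr6:29685397-29685496 on the plus strand for Smo and chr1:120950197-120950296 on the minus strand for Gli2, and they hold 0 bases of annotated exons. The Smo and Gli2 stretches adjoin the gene's outer start in the deposited table, whereas the Ptch1 stretch lies inside the gene's interval, before an internal start. They are written 5′ to 3′, with capitals at each CG dinucleotide.
Ptch1: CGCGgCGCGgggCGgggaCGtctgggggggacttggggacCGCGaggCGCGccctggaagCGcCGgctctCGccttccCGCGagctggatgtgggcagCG
Smo: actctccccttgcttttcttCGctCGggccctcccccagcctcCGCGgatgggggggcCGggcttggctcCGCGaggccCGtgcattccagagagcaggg
Gli2: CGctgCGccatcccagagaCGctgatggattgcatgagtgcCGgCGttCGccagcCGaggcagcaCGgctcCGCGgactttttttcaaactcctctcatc
The Ptch1 stretch holds 16 CG dinucleotides, the Smo stretch 8 and the Gli2 stretch 10. Over the whole windows of 300 bases, the 6 genes had between 12 (Sufu) and 47 (Ptch1) CG dinucleotides, beside a median of 7 over 32851 windows of all genes. The Gli binding motif TGGGTGGTC, searched on both strands (reverse complement GACCACCCA), was found in 0 of these 6 windows, also when 1 mismatch was allowed. It was in 0.253% of all windows exactly and in 6.74% with 1 mismatch. The search covers these windows only. Among the other pathway genes below, 26 had a window, and a match with 1 mismatch was found in that of Ulk3 alone.

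The other genes of the pathway were listed by their known roles. Of 34 genes in the table, 23 were tested, 2 of which (Kif7 and Gpr161) passed the filter only through their KO libraries. Their median log2 fold change was 0.31, and 19 were higher and 4 lower in KO mice, while 7635 of all 13027 tested genes were higher. At an unadjusted p under 0.05 there were 4 higher and 0 lower genes, or 3 higher without Gpr161, beside the 10.9% and 6.22% of all tested genes, and limma called 0 after adjustment. Among the co-receptors, Gas1, which presents the ligand to its receptor, ran at 10.5 and 7.49 FPKM in WT skin and at 26.6 and 35.3 FPKM in KO skin. Its limma log2 fold change was 1.68 ± 0.29 (SE, adjusted p = 0.248). Cdon, the relative of Boc, went the other way, with WT values of 4.15 and 3.77 FPKM, KO values of 3.31 and 2.47 FPKM and a log2 fold change of -0.36 (adjusted p = 0.469 by limma).

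The other ligands were low. Dhh, the desert hedgehog ligand of Schwann cells, overlapped between the groups (WT 1.17 and 1.70 FPKM, KO 2.01 and 0.988 FPKM), and Ihh lay between 0.0323 and 0.1499 FPKM. Of 5 genes for ligand processing and release none was tested. The table places Disp1 on a contig without a position on its chromosome and lists it at 0 in every library, so its level in skin cannot be read from this row. Scube2, which helps to release the ligand from the cell, was at 3.33 FPKM in KO replicate 2 and between 0.487 and 0.722 FPKM in the other libraries. Scube3 was highest in KO replicate 1 at 0.608 FPKM, against at most 0.0701 FPKM elsewhere. Scube1 had its highest value there too, 0.831 FPKM, with 0.175 to 0.214 FPKM in the other libraries. Hhat, which attaches palmitate to the ligand, overlapped between the groups.

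Of 11 tested genes for signal transduction 9 were higher and 2 lower, and their median log2 fold change was 0.29, beside the 0.11 of all tested genes. Gpr161, a ciliary receptor that restrains the pathway and 1 of the 2 genes that passed the filter through KO libraries alone, went from 0.744 and 0.607 FPKM in WT libraries to 1.59 and 2.49 FPKM in KO libraries. For this gene limma gave a log2 fold change of 0.84 ± 0.27 (SE, adjusted p = 0.258). Of the genes that passed in both groups Csnk1a1 (0.58) and Ulk3 (0.52) had the highest values. Kif7, which passed through KO libraries alone, was at 0.41, and none of these 3 had an unadjusted p under 0.05. Stk36 was too low for the test, at 0.0862 to 0.396 FPKM. Among 5 tested genes of ciliary transport, Arl13b, a small GTPase of the ciliary membrane, was at 2.70 and 1.55 FPKM in WT skin and at 4.10 and 8.10 FPKM in KO skin, with a limma log2 fold change of 1.15 ± 0.39 (SE, adjusted p = 0.264). Ift88, a subunit of the transport complex of cilia, gave 1.79 and 1.24 FPKM in WT skin, 2.16 FPKM in KO replicate 1 and 3.34 FPKM in KO replicate 2, and its log2 fold change was 0.57. The log2 fold change was -0.54 for Ift122, another such subunit, and 0.20 for the motor gene Kif3a. Dync2h1, the heavy chain of the returning motor, was too low for the test, at 0.220 to 0.370 FPKM. Of the further target genes 4 were tested and all 4 were higher, as were 7635 of 13027 genes in all. Sox9, a transcription factor of hair follicle stem cells that also responds to other signals, measured 2.73 and 1.97 FPKM in WT skin, 9.07 FPKM in KO replicate 1 and 15.7 FPKM in KO replicate 2, with a limma log2 fold change of 1.96 ± 0.34 (SE, adjusted p = 0.248). The log2 fold changes of Ccnd2, Bcl2 and Ccnd1 were 0.82, 0.34 and 0.31. Foxf1 lay at 0.0879 to 0.312 FPKM and was not tested. Mycn was also too low for the test, with 0.289 and 0.326 FPKM in WT mice, 2.07 FPKM in KO replicate 1 and 0.581 FPKM in KO replicate 2.

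By level, the order of the 9 genes in WT skin was Smo, Sufu, Boc, Ptch1, Gli1, Gli2, Gli3, Hhip and Shh, from 7.69 to 0.0108 FPKM. Gli2 and Gli3 overlapped there, whereas the libraries of all other neighbours in this order did not. In KO skin the order was Smo, Boc, Sufu, Gli1, Ptch1, Gli2, Gli3, Shh and Hhip. Here Boc and Sufu overlapped, as did Sufu and Gli1, Gli2 and Gli3, and Shh and Hhip. Gli1 was below Ptch1 in both WT libraries and above it in both KO libraries.

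Several lists of epithelial markers, but not that of the suprabasal epidermis, moved with the Hedgehog genes, and since the RNA was from whole skin, more cells of a type and more RNA per cell cannot be told apart. All 6 basal epidermal markers were higher in both KO libraries than in both WT libraries, with summed levels of 2170 to 2262 FPKM in WT and 4799 to 5262 FPKM in KO mice, and the same held for 6 of 6 cell cycle genes (7.67 to 16.6 against 28.9 to 54.4 FPKM). Across all genes above 0 in some library, such separation held for 28.8% with KO higher and for 19.2% with KO lower. The counts of these small lists should be read beside those shares. Hair matrix and follicle regulators were separated with KO higher in 7 of 9 genes, at 12.7 to 20.1 FPKM in WT and 58.7 to 69.7 FPKM in KO mice. Foxe1, among these 7, was at 0 in both WT libraries. The suprabasal epidermal markers were separated in 0 of 4 genes and summed to 2892 and 1564 FPKM in WT mice, 6240 FPKM in KO replicate 1 and 716 FPKM in KO replicate 2. Lists of the differentiated hair were, like Shh, highest in KO replicate 1, and so were the melanocyte markers (78.5 FPKM summed, 5.23 to 8.91 in the other libraries). KO replicate 1 had the highest value of all 6 inner root sheath genes, summed to 304 FPKM there against 6.14 FPKM in KO replicate 2 and 0.669 to 8.20 FPKM in WT mice, and of all 8 hair shaft keratins, at 71.8 FPKM against 5.28 FPKM in KO replicate 2 and 0.351 to 0.787 FPKM in WT mice. Both KO libraries lay above both WT libraries in 3 of 6 inner root sheath genes and 6 of 8 hair shaft keratins, beside the 28.8% of all genes. Of the inner root sheath genes, Krt25, Krt27 and Krt73 were at 0 in at least 1 library, and so were Krt33b, Krt34, Krt35, Krt81 and Krt86 of the hair shaft. Markers of the dermal papilla, which receives the ligand, were highest in KO replicate 1 in 7 of 9 genes (54.6 FPKM summed, 24.0 to 32.4 in WT, 19.9 in KO replicate 2). Of these, 4 of 9 had both KO libraries above both WT libraries, beside 28.8% of all genes. Sox18, singled out after its values were seen, made up much of the WT sums, with 12.3 and 21.5 FPKM there and 15.9 and 2.41 FPKM in KO mice. Sebocyte markers were higher in both KO libraries in 4 of 5 genes and summed to 654 FPKM in KO replicate 2, 113 FPKM in KO replicate 1 and 11.8 to 23.0 FPKM in WT mice. The 7 fibroblast markers summed to 31.5 FPKM in KO replicate 2, against 511 FPKM in KO replicate 1 and 231 to 324 FPKM in WT mice. Of the 9 Hedgehog genes, Smo, Gli3 and Boc were highest in KO replicate 2. Shh, Hhip, Ptch1, Gli1 and Gli2 were highest in KO replicate 1, and Sufu in WT replicate 2. Other lists held genes that were lower in KO mice. Skeletal muscle markers summed to 16122 to 17027 FPKM in WT and 10066 to 10694 FPKM in KO mice. Beside 19.2% of all genes, 3 of these 5 had both KO libraries below both WT libraries. This held for 3 of 5 macrophage markers (167 to 203 against 12.1 to 80.2 FPKM) and 2 of 5 adipocyte markers (736 and 2392 FPKM summed in WT, 752 and 52.9 FPKM in KO mice, so that the sums overlapped). The part of these cell types in the Hedgehog differences was not tested.

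**Figure D3:**
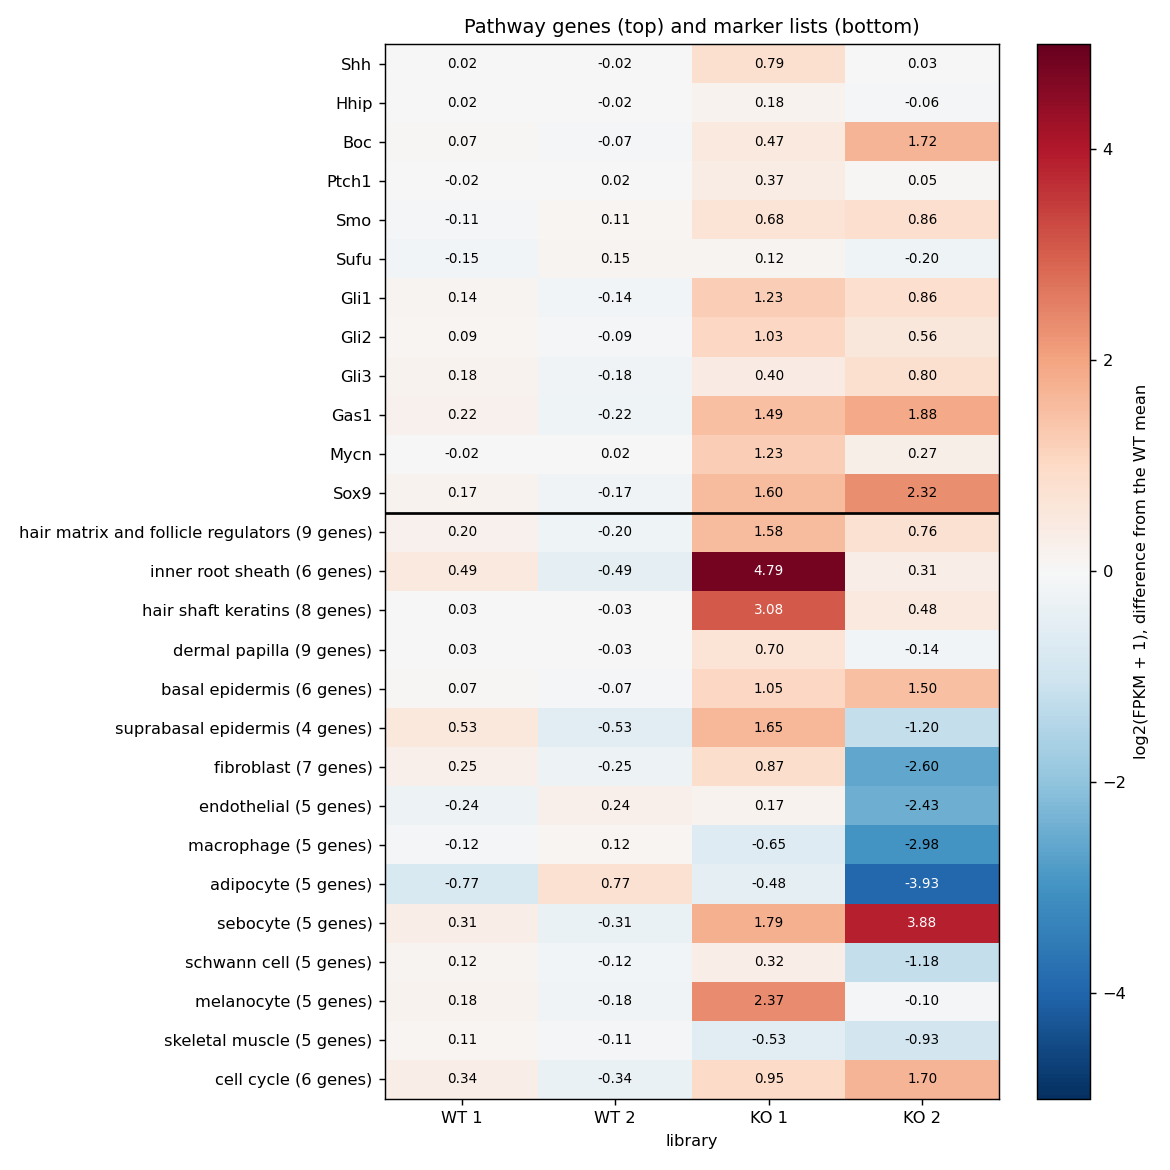
Differences from the WT mean in log2(FPKM + 1) for each library (columns), with the 9 Hedgehog genes and 3 further pathway genes, chosen after their values were seen, above the line and the mean of each marker list below it. Red is higher and blue lower than the WT mean. Shh, Mycn, the inner root sheath (4.79) and the hair shaft (3.08) are high in KO replicate 1, where Gli1 (1.23) and Gli2 (1.03) are also highest. Boc (1.72), Gas1 (1.88) and Sox9 (2.32) are highest in KO replicate 2. The fibroblast markers are at 0.87 in KO replicate 1 and at -2.60 in KO replicate 2.

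The Hedgehog genes were also expressed relative to the basal epidermal markers of the same library, a measure chosen after the values had been seen. On the log2 FPKM scale without a pseudocount, the mean of the 6 markers was 1.30 higher in KO mice. A gene that rose by less than this falls on the relative scale. The measure does not show which cells held the Hedgehog RNA, and it cannot tell more basal cells from more RNA per cell. Gli1 was 1.46 higher by itself and 0.16 higher relative to the markers. Its relative values overlapped, at -5.83 and -6.14 in WT and -5.36 and -6.29 in KO mice. Boc (0.04), Gli3 (0.37) and Gli2 (0.58) also overlapped between the groups on this relative scale. Smo was 0.84 higher by itself and -0.46 relative to the markers, with both KO libraries below both WT libraries, as were Ptch1 (-1.02) and Sufu (-1.35). Gas1 (0.49) and Sox9 (1.06) kept both KO libraries above both WT libraries. They had the largest log2 fold changes of the other tested pathway genes. None of the rest of those genes was put on this scale, so the result follows in part from the choice.

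Of the 9 genes, Gli1, Gli2 and Boc were tested and varied by more than 1 log2 unit across the 4 libraries, and the 5 tested genes with the most similar centred profile were determined for each. The distance is Euclidean over 4 libraries in log2 units. The nearest of so many genes over so few libraries lie close through the search itself, so a small distance does not show a shared role. Nearest to Gli1 were the Wnt receptor gene Fzd2 (0.06), Cblc, Srcin1, the secreted Dkk3 and Crybg2 (0.08), beside a median distance of 1.09. Fzd2 was at 3.90 and 3.07 FPKM in WT libraries and at 9.56 and 7.49 FPKM in KO libraries, the same order of libraries as Gli1. Nearest to Gli2 were the mitotic gene Cdc20 (0.06), the Wnt receptor gene Fzd10, Cep170b, Oas1e and Smagp (0.12), beside a median of 0.93. Nearest to Boc were the non-coding Snhg1 (0.03), the growth regulator Myc (0.09), Rnf5, Acbd6 and Cdkn3 (0.13), beside a median of 1.37. Myc was at 9.21 and 8.54 FPKM in WT skin, 13.5 FPKM in KO replicate 1 and 30.9 FPKM in KO replicate 2.

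Leaving out each library in turn kept the direction of Smo, Gli1, Gli2, Boc and Ptch1, with log2 fold changes of 0.66 to 0.88, 0.86 to 1.23, 0.56 to 1.03, 0.47 to 1.72 and 0.05 to 0.37. Sufu ran from -0.20 to 0.12, on both sides of 0. Gli1 was at 1.23 without KO replicate 2, the library low in fibroblast markers. It was at 0.86 without KO replicate 1, the library high in hair, melanocyte and fibroblast markers. Smo was at 0.68 without KO replicate 2 and at 0.86 without KO replicate 1.

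**Figure D4:**
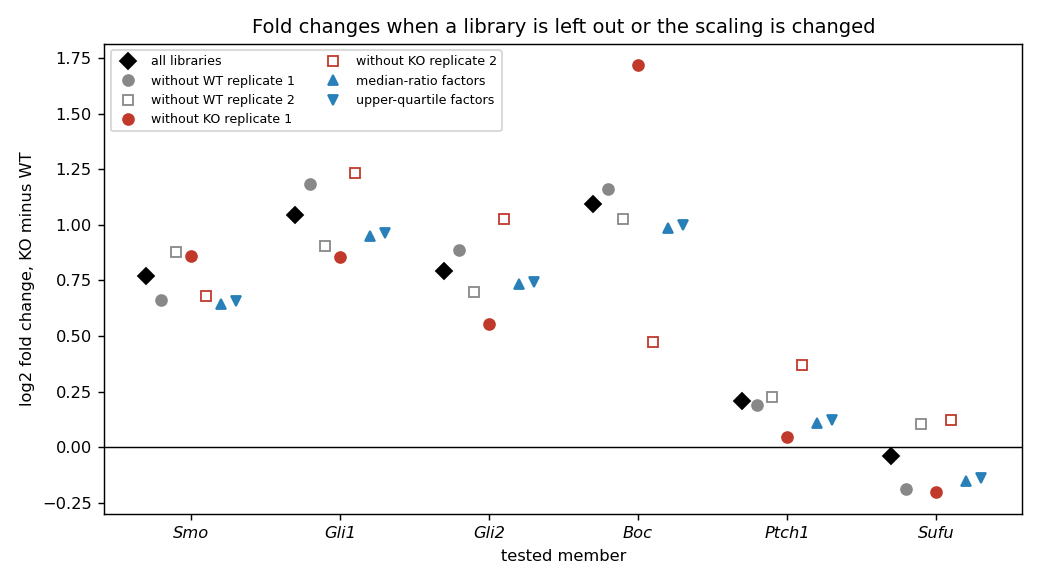
Log2 fold change between KO and WT (vertical axis) of the 6 tested Hedgehog genes (horizontal axis) with all libraries (black diamonds), without each library (circles and squares) and with 2 other scalings (triangles). Boc spreads most, from 0.47 to 1.72, and Sufu lies on both sides of 0.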

How the data were processed

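RNA-seq of skin from 2 WT and 2 GSDMD KO mice was analysed, grouped by the sample titles. Alignment by the authors was to mm9, with HISAT2 (version 2.0.1), and the submitters' processing notes also name StringTie (version 2.0.6). The deposited table is named as counts, but 99.993% of its values above 0 are not whole, and it was read as FPKM, made by the authors with a program not given in the sources used here. Depth was estimated on 2710 genes annotated with 1 transcript, 2 kb or longer (GENCODE, mm9), and fragments of single genes, given for the longest transcript, are approximate.

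Genes that reached 1 FPKM in 2 or more libraries were fitted as log2(FPKM + 1) with limma (version 3.58.1, R version 4.3.3), genotype as the only term, a mean-variance trend and Benjamini-Hochberg adjustment over 13027 genes, in place of the count test of the study. The procedure was tested on simulated data. The members and lists were chosen with earlier results of these data known. Named genes were the 9 members, up to 4 tested genes of each pathway list with the largest absolute log2 fold change, its untested genes by level and the 5 nearest profiles, and 1 listed gene is not reported here. No source used here says that a replicate number pairs WT and KO mice. P-values measure only the spread between these mice. Alternatives were other pseudocounts, filters, scalings, no trend, blocks and leaving out each library. Of the names in the table, 26 had turned into dates.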

Additional observations from a re-analysis of the deposited data

How the results depend on the processing

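The count of Hedgehog genes at an unadjusted p under 0.05 was 3 in the fit of all libraries and also with a pseudocount of 0.1, other scalings, no trend and the replicate block, where Boc took the place of Smo, and 4 without a filter, which added Gli3. Leaving out a library gave 0 to 3 Hedgehog genes, 2 to 6 other pathway genes and 534 to 4191 genes in all, and 0 to 2058 called genes (2058 without KO replicate 1, 43 without KO replicate 2, 0 without either WT library). The median log2 fold change of the 6 tested genes was 1.07 with a pseudocount of 0.1, with or without the lower filter, 0.69 with median-ratio factors, 0.70 with upper-quartile factors and 0.57 to 0.79 with a library left out. Both scalings moved the median of all genes from 0.11 to about 0 (-0.01 and 0.01) and the genes at an unadjusted p under 0.05 from 1420 higher and 810 lower to 1119 and 1121 with median-ratio factors and to 1100 and 1115 with upper-quartile factors. Sufu ran from -0.20 to 0.12 with a library left out, and the cause was not tested. The deviations of same-numbered libraries correlated at -0.20 over 13027 genes, so the numbers were not shown to pair the mice, and the replicate block gave 1167 higher and 832 lower genes. The crossed replicate block, added after the data were seen, gave 3 Hedgehog genes (Gli1, Boc and Smo) and 1905 higher and 1147 lower genes in all. Depth limits Shh and Hhip, which had at most 27.3 and 12.7 estimated fragments. A count test was not run on FPKM values.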
